A study of Mus musculus with 127 samples.

Results

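Gata1 and Gata2 encode the GATA transcription factors of the blood system, and their transcripts were followed here through 127 single cells of mouse marrow. They were 2 of the 24320 gene symbols in the table, and each symbol had 1 row, RefSeq NM_008089 for Gata1 and NM_008090 for Gata2. The cells came from the marrow of C57BL/6J mice and carried the cell type label erythroblast, the nucleated precursor of the red cell. One group of 48 cells was Flvcr-deleted and another of 48 was wild-type, while 31 cells came from wild-type animals given EPO (erythropoietin, the hormone of red cell production). The Flvcr-deleted label names a mouse without the heme exporter Flvcr, and the series title sets heme beside GATA1 in erythroid differentiation.

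Cells were also labelled with a class, A to D, that broadly follows their staining for Ter119, a surface antigen gained by red cell precursors as they mature, so that class A stained least. Flvcr-deleted cells numbered 18 in class A, 16 in class B, 9 in class C and 5 in class D. Wild-type cells numbered 6, 10, 19 and 13 in the same order, and EPO-treated cells 7, 11, 9 and 4. The labels give neither the deleted allele nor what drove the deletion, and neither the dose of EPO nor the age of the mice. Because the labels tie no cell to an animal, a group was treated as a single sample with no replicate check. No p-value was made, every SD is over cells, and each group filled chips of its own, so that chip and group cannot be told apart.

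GATA1 is the factor that erythroid precursors need in order to mature. Its cofactor is FOG1 (gene Zfpm1), and TAL1, LMO2 and LDB1 are partners in its DNA-bound complex. With them it switches on globin genes, heme synthesis genes and the receptor for erythropoietin. GATA2 works earlier, in stem and progenitor cells, and is also kept in mast cells and basophils. During erythroid maturation GATA1 takes the place of GATA2 at many shared sites, the Gata2 gene among them, which is known as the GATA switch.

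The groups differed in how much of the transcriptome was seen. Detection of a gene meant an RPKM (reads scaled to transcript length and sequencing depth) of at least 1, and the median number of genes detected was 1069 for Flvcr-deleted, 2422 for wild-type and 1441 for EPO-treated cells. Estimated reads per cell in classes B to D ranged from 755000 to 4862000 in the Flvcr-deleted and from 2082000 to 5330000 in the wild-type group. The EPO-treated columns gave no estimate, so their depth is unknown. In class A of the Flvcr-deleted group the estimates ran from 58000 to 3488000 with a median of 586000. At least 3 of 9 erythroblast markers were detected in all cells of classes B to D, but in class A they were detected in 14 of 18 Flvcr-deleted, 3 of 6 wild-type and 4 of 7 EPO-treated cells. The transcript of the deleted gene, listed as Mfsd7b, was detected in 0 of 48 Flvcr-deleted, 1 of 48 wild-type and 0 of 31 EPO-treated cells, so it could not check the labels.

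Gata1 was present in nearly every wild-type cell of classes B to D and missing from about as many Flvcr-deleted cells of those classes as carried it. Detection reached 41 of 42 wild-type cells (97.6%, exact 95% interval 87.4 to 99.9%), 14 of 30 Flvcr-deleted cells (46.7%, 28.3 to 65.7%) and 13 of 24 EPO-treated cells (54.2%, 32.8 to 74.4%). These intervals cover counting error over cells only. Where it was detected, its median level was 131 RPKM in wild-type, 48.2 RPKM in EPO-treated and 9.95 RPKM in Flvcr-deleted cells. Both the number of cells with Gata1 and the level in those cells were therefore lower outside the wild-type group.

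Among wild-type cells the level was high in each of the classes that stain for Ter119. In class B the lowest of 10 cells had 18.7 RPKM, the median was 128 RPKM and the highest had 523 RPKM. In class C the lowest of 19 cells had 0.190 RPKM, the median was 78.7 RPKM and the highest had 429 RPKM. In class D the lowest of 13 cells had 7.71 RPKM, the median was 191 RPKM and the highest had 398 RPKM. The 3 classes overlapped over most of their range, and the class C cell at 0.190 RPKM was the single wild-type cell of these classes under the detection limit.

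Flvcr-deleted cells spread from no Gata1 to wild-type levels in class B and stayed low in class D. In class B, 9 of 16 cells were listed at 0 and the highest had 215 RPKM. In class C, 5 of 9 cells were listed at 0 and the highest had 51.3 RPKM. In class D the 5 cells had 0, 0, 1.76, 2.17 and 7.03 RPKM. The Flvcr-deleted cells of class D did not overlap the 13 wild-type cells of class D, while in classes B and C the upper Flvcr-deleted cells lay within the wild-type range. The class D gap was narrow, 7.03 against 7.71 RPKM, and the share of other genes that separate these cells was not counted. One Gata1 read was worth a median of 0.150 RPKM in the Flvcr-deleted and 0.130 RPKM in the wild-type cells of classes B to D. Of the 30 Flvcr-deleted cells 11 had under 1000 detected genes, against 0 of 42 wild-type cells, and the part of this in the zeros was not tested. The cell at 215 RPKM rested on about 920 reads and that at 7.03 RPKM on about 51 reads.

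EPO-treated cells had Gata1 at wild-type levels in part of class B and little of it in class D. In class B, 3 of 11 cells were listed at 0, the median was 46.6 RPKM and the highest had 407 RPKM. In class C, 3 of 9 cells were listed at 0, the median was 2.87 RPKM and the highest had 461 RPKM. In class D the 4 cells had 0, 0, 0 and 4.47 RPKM, all below the lowest wild-type cell of that class, at 7.71 RPKM. The share of other genes that separate these cells was not counted. The EPO-treated cells came from 2 chips: in classes B to D, 2 of 3 cells of the smaller chip, at 0, 17.1 and 104 RPKM, and 11 of 21 cells of the larger one had Gata1.

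**Figure D1:**
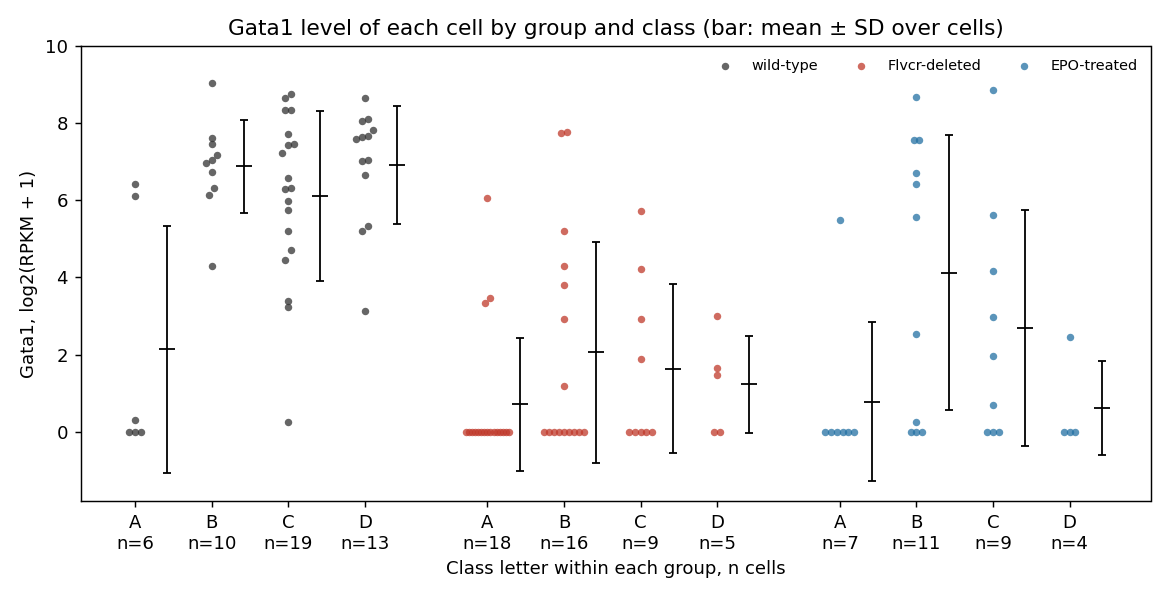
Gata1 level of each cell, as log2(RPKM + 1) on the vertical axis, by group and class letter on the horizontal axis; points are cells, and the bars beside them are the mean and SD over cells. Wild-type cells of classes B to D lie mostly above 4 on this scale, whereas 16 of 30 Flvcr-deleted cells and 9 of 24 EPO-treated cells of these classes sit at 0.

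Class A held little Gata1 in all 3 groups. The 6 wild-type cells had 0, 0, 0, 0.241, 68.1 and 84.1 RPKM. Of 18 Flvcr-deleted cells 15 were listed at 0 and the other 3 had 9.16, 10.1 and 65.4 RPKM, and 1 of 7 EPO-treated cells had Gata1, at 43.7 RPKM, with the other 6 listed at 0. The groups overlapped at 0. The Flvcr-deleted cell at 9.16 RPKM came to about 1 read, since 1 read was worth 9.13 RPKM there, and Gata1 at the lower wild-type levels would not have been detectable in the shallowest cells of this class.

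On the log2(RPKM + 1) scale, which understates changes near 0, the 12 group and class means of Gata1 ran from high to low as follows. Wild-type class D stood at 6.91 ± 1.53 (SD over 13 cells), class B at 6.88 ± 1.21 and class C at 6.11 ± 2.20. EPO-treated class B followed at 4.12 ± 3.56 and class C at 2.70 ± 3.06. Next came wild-type class A at 2.14 ± 3.20, and below it Flvcr-deleted class B at 2.06 ± 2.86, class C at 1.64 ± 2.19 and class D at 1.23 ± 1.27. The lowest means were EPO-treated class A at 0.78 ± 2.07, Flvcr-deleted class A at 0.72 ± 1.73 and EPO-treated class D at 0.61 ± 1.23. No neighbours in this order differed by more than 1 SD over cells; the widest gap was that between wild-type class C and EPO-treated class B.

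Since the classes were filled unequally, groups were compared inside each class and the class differences were averaged with equal weight. A gene counted as lower where this class-weighted difference was at least 1 in size and had the same sign in every letter. Flvcr-deleted minus wild-type, Gata1 differed by -4.10 over classes A to D, a rule that 44.6% of the 2540 genes with a mean log2 level of at least 1 (the kept genes) also met. The difference was -1.42 in class A, -4.82 in class B, -4.47 in class C and -5.69 in class D. Over classes B to D, where every cell carried erythroblast markers, it was -4.99, against a median of -1.08 over kept genes, of which 48.3% counted as lower. Being called lower was thus common in this comparison. By size Gata1 stood 17th lowest of the 2540 genes over classes A to D and 3rd lowest over classes B to D. On this scale a gene can fall by no more than its wild-type level, which for Gata1 had a mean of 6.54 over classes B to D. Kept genes of low level could not fall as far, so the rank depends in part on level, here and in the next comparison.

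EPO-treated minus wild-type, Gata1 differed by -3.46 over classes A to D, where 35.2% of kept genes counted as lower. By class the difference was -1.36, -2.76, -3.41 and -6.30 from A to D. Over classes B to D it was -4.16, with a kept-gene median of -0.99 and 42.0% of kept genes counted as lower, and Gata1 again stood 3rd lowest. This comparison and the previous one share the 48 wild-type cells. The same letter did not mean the same Ter119 value in these 2 groups. Normalized Ter119 ran from 0.330 to 0.541 in wild-type class B and from 0.00064 to 0.197 in EPO-treated class B. In class C it ran from 0.551 to 0.741 and from 0.00263 to 0.366 in the same order. Cells of the same letter may therefore differ in maturity between these groups. Flvcr-deleted minus EPO-treated, Gata1 differed by -0.64 and did not meet the rule, which 6.26% of kept genes met in that direction: it was lower in class A by -0.07, in class B by -2.06 and in class C by -1.06, and higher in class D by 0.61. The difference of -0.64 lay within the SD over cells. That SD describes single cells and not the uncertainty of a mean difference, so it does not show that the 2 groups are alike.

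Gata1 was also compared between classes inside each group. Class D minus class B, the difference was 0.04 in wild-type, -0.83 in Flvcr-deleted and -3.51 in EPO-treated cells, on the log2(RPKM + 1) scale. With every cell scaled to the same sum of RPKM these values were -0.77, -1.25 and -3.95, so the sign of the wild-type value depended on the scaling. Without that scaling, the medians over kept genes were -0.90, -0.43 and -1.36 in that order. The difference between these courses was not tested, and the EPO-treated class D rests on 4 cells. Among cells of 1 chip in classes B to D, Gata1 had little rank relation to the Ter119 value itself, with Spearman's rho of 0.08 over 42 wild-type, 0.16 over 30 Flvcr-deleted and -0.26 over 21 EPO-treated cells.

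Cells with fewer detected genes had less Gata1 in the Flvcr-deleted and EPO-treated groups. Over classes B to D, Spearman's rho between Gata1 and the number of detected genes was 0.53 in 30 Flvcr-deleted, 0.62 in 21 EPO-treated and 0.20 in 42 wild-type cells; both values in each cell come from the same library. With at least 1000 and under 1500 detected genes, Gata1 was detected in 6 of 6 wild-type cells, at 8.36 RPKM in the lowest, 46.0 RPKM at the median and 129 RPKM in the highest. In the same range Gata1 was seen in 4 of 8 Flvcr-deleted cells, the highest at 7.03 RPKM, and in 3 of 8 EPO-treated cells, the highest at 48.2 RPKM. All 8 Flvcr-deleted cells in this range thus lay below all 6 wild-type cells, while the EPO-treated cells overlapped both. The gap was narrow, 7.03 against 8.36 RPKM, and the share of kept genes that separate these cells in the same way was not counted. The wild-type cells of this range were of classes C and D only, while the Flvcr-deleted ones included class B.

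The other ranges of detected genes gave the following. From 1500 to under 2000 detected genes, 11 of 12 wild-type, 3 of 4 Flvcr-deleted and 3 of 4 EPO-treated cells had Gata1. With 2000 or more, Gata1 was present in 24 of 24 wild-type cells with a median of 145 RPKM, in 5 of 7 Flvcr-deleted cells with a median of 17.6 RPKM, and in 6 of 6 EPO-treated cells with a median of 93.9 RPKM. Under 1000 detected genes there were 11 Flvcr-deleted cells, 2 of them with Gata1, 6 EPO-treated cells, 1 of them with Gata1, and 0 wild-type cells. Levels of all 3 groups overlapped in both of the upper ranges: the highest Flvcr-deleted cell had 214 RPKM from 1500 to under 2000 detected genes and 215 RPKM with 2000 or more, where the lowest wild-type cell had 9.49 RPKM. In the latter range 2 of 7 Flvcr-deleted cells had no Gata1. When classes B to D were limited to cells in which 1000 to 2000 genes were detected, the class-weighted difference from wild-type was -4.36 for Flvcr-deleted and -4.44 for EPO-treated cells. Some classes kept few cells in that range. Wild-type class B kept only those with 1500 and 1688 detected genes, and EPO-treated class D only those with 1248 and 1513. With equal weight per class, these values rest in part on those few cells.

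**Figure D2:**
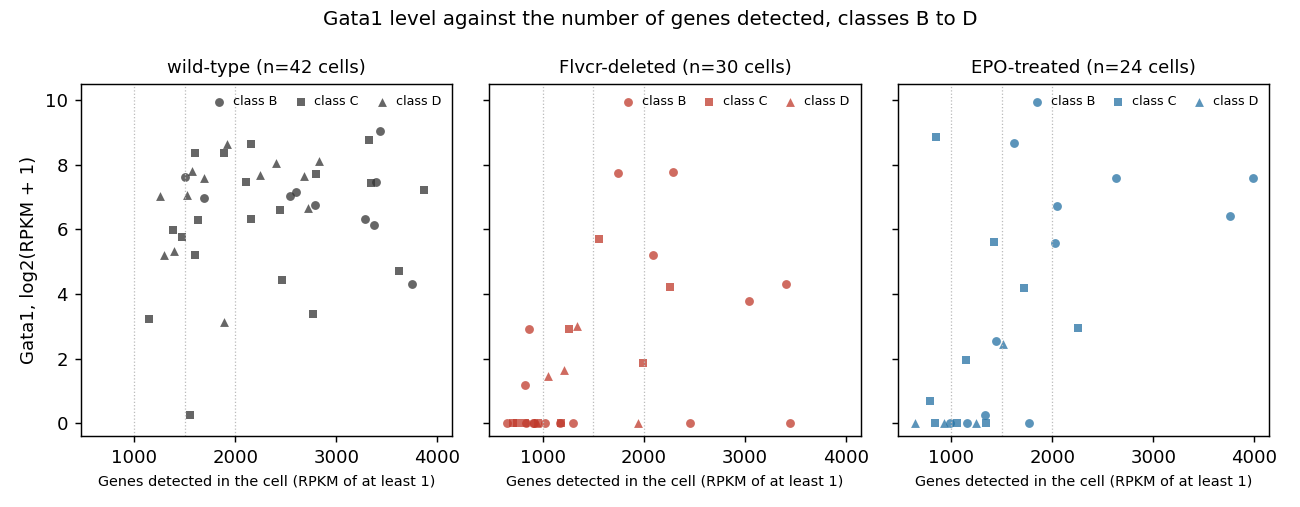
Gata1, as log2(RPKM + 1) on the vertical axis, against the number of genes detected in the same cell on the horizontal axis, for classes B to D of each group; dotted lines mark 1000, 1500 and 2000 genes. Wild-type cells keep Gata1 down to the lowest gene numbers seen in that group, while 16 Flvcr-deleted cells lie at 0.

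Gata2 was found in a different set of cells. It was detected in 13 of 127 cells: 8 of 48 Flvcr-deleted (16.7%, exact 95% interval 7.48 to 30.2%), 4 of 48 wild-type (8.33%, 2.32 to 20.0%) and 1 of 31 EPO-treated cells (3.23%, 0.0816 to 16.7%). All 4 wild-type cells and the EPO-treated cell with Gata2 were in class A. In classes B to D, Gata2 was detected in 0 of 42 wild-type cells (upper limit of the exact interval 8.41%) and in 0 of 24 EPO-treated cells (upper limit 14.2%). The same classes held 5 of 30 Flvcr-deleted cells with Gata2 (16.7%, 5.64 to 34.7%), 4 in class B and 1 in class C. The interval of the Flvcr-deleted share overlapped both others.

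The cells with Gata2 fell apart by what else they expressed. Of 9 mast cell and basophil markers, counted without Gata2, Kit and Il1rl1, at least 3 were detected in 5 cells, all of class A, and all 5 of these had Gata2. In the other 122 cells the summed level of the list was at most 19.0 RPKM and was 0 in 93 of them; 8 of these 122 cells had Gata2, 7 Flvcr-deleted, 1 wild-type and 0 EPO-treated. In 3 of the 6 class A wild-type cells Gata2 stood at 127, 180 and 600 RPKM beside Mcpt8, a protease of basophils, at 12164, 17450 and 18125 RPKM and Prss34, a second one, at 49052, 100462 and 63262 RPKM. The EPO-treated cell with Gata2 at 189 RPKM had Mcpt8 at 32973 RPKM and Prss34 at 109676 RPKM.

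The 3 wild-type cells and the EPO-treated cell had globin shares of at most 0.199% of summed RPKM, the erythroid factor Klf1 and the red cell anion exchanger Slc4a1 were listed at 0 in each, and Alas2 was at most 0.04 RPKM, although all 4 carry the erythroblast label. Gata1 was present in 2 of them, at 68.1 RPKM in 1 wild-type cell and at 43.7 RPKM in the EPO-treated cell. The fifth cell, in Flvcr-deleted class A, had Gata2 at 17.9 RPKM, Mcpt8 at 1496 RPKM and the mast cell carboxypeptidase Cpa3 at 569 RPKM, with Prss34 and Gata1 listed at 0. Without these 5 cells the share with Gata2 was 14.9% of 47 Flvcr-deleted, 2.22% of 45 wild-type and 0% of 30 EPO-treated cells.

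**Figure D3:**
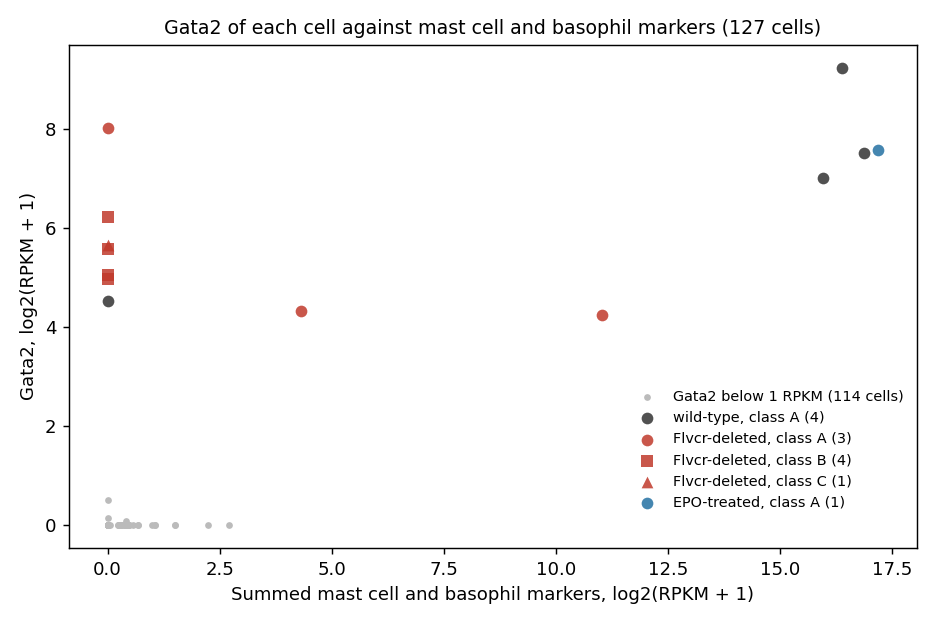
Gata2, as log2(RPKM + 1) on the vertical axis, against the summed level of 9 mast cell and basophil markers on the same scale on the horizontal axis, 1 point per cell; colour gives the group and shape the class. The 4 class A cells at the upper right carry Gata2 with these markers, and the Flvcr-deleted cells of classes B and C at the left carry Gata2 with the marker sum at 0.

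The 5 Flvcr-deleted cells of classes B and C with Gata2 had none of the 9 counted mast cell and basophil markers; of the uncounted ones, Il1rl1 stood at 13.4 RPKM in the cell with the lowest Gata2. Their Gata2 levels were 30.2, 32.2, 46.8, 49.0 and 73.7 RPKM, from about 344 to 694 reads each, against 0 in all 42 wild-type cells of classes B to D. They were of 2 kinds by globin. In 3 of them, at 46.8, 49.0 and 73.7 RPKM of Gata2, globin genes made up 93.6, 93.4 and 96.8% of summed RPKM, and between 645 and 864 genes were detected. Those cells had Alas2, the first enzyme of heme synthesis in red cells, at 280, 684 and 305 RPKM and Klf1 at 15.2, 144 and 54.1 RPKM in the same order. Their high globin share and low gene number stand beside Gata2, and the part of either in its detection was not tested.

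The other 2 cells, at 30.2 and 32.2 RPKM of Gata2, had globin shares of 0.320 and 1.26% and 3405 and 3452 detected genes. The first had Gata1 at 18.7 RPKM and the erythropoietin receptor Epor at 84.2 RPKM; the second had Klf1 at 27.2 RPKM and Gata1 listed at 0. Of 23 other progenitor genes, both had Hhex, Lmo2 and Rgs18, with Myb in one and Lyl1 in the other. Such genes also occurred without Gata2: a Flvcr-deleted class B cell without Gata2, with a globin share of 0.375%, held 5 of the 23, Myb, Hhex and Lmo2 among them, and over classes B to D Lmo2 was present in 39 of 42 wild-type cells and in 18 of 30 Flvcr-deleted ones. Hhex, a homeobox factor of early blood cells, was detected over classes B to D in 3 of 30 Flvcr-deleted, 0 of 42 wild-type and 0 of 24 EPO-treated cells. Kit, the stem cell factor receptor, reached the detection limit in 0 cells of these classes in any group.

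In class A, among cells with fewer than 3 of the counted markers, Gata2 was detected in 2 further Flvcr-deleted cells and in 1 wild-type cell. The Flvcr-deleted cells had 258 and 18.9 RPKM of Gata2, with 669 and 343 detected genes. Both carried suffix d, and their Gata2 rested on about 147 and 12 reads in the same order. The second also had 1 counted marker, Cpa3, at 19.0 RPKM. The wild-type cell had 21.9 RPKM of Gata2 together with Gata1 at 84.1 RPKM, Klf1 at 28.4 RPKM, Epor at 39.0 RPKM, Kit at 6.59 RPKM and a globin share of 0.00115%. It had none of the 9 counted mast cell and basophil markers, but Il1rl1, left out of the count as Kit was, stood at 5.62 RPKM.

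Both GATA genes were detected together in 5 of 127 cells: 2 Flvcr-deleted cells of class B, 2 wild-type cells of class A and 1 EPO-treated cell of class A. In classes B to D, 41 of 42 wild-type cells had Gata1 alone and 1 had neither. In the Flvcr-deleted group the same classes held 12 cells with Gata1 alone, 3 with Gata2 alone, 2 with both and 13 with neither. In the EPO-treated group they held 13 with Gata1 alone and 11 with neither. Of the 16 Flvcr-deleted and 11 EPO-treated cells of these classes without Gata1, 13 and 11 thus had no Gata2 either.

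The class-weighted difference of Gata2, a gene under the level for kept genes, was -0.44 over classes A to D, Flvcr-deleted minus wild-type, with opposite signs by class. It was -3.76 in class A, where 3 of 6 wild-type and 1 of 18 Flvcr-deleted cells carried the mast cell and basophil markers, 1.37 in class B, 0.63 in class C and 0 in class D. EPO-treated minus wild-type it was -3.61 in class A and 0 in classes B to D, where Gata2 was listed at 0 in every cell of both groups.

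Of the regulators that work with GATA1, Klf1 and Gfi1b counted as lower than wild-type in both groups over classes B to D, as 48.3% and 42.0% of kept genes did for Flvcr-deleted and EPO-treated cells, and Zfpm1 did not. Over classes A to D, Klf1 did not meet the rule in Flvcr-deleted cells, at -2.22. Klf1, which activates adult globin and red cell membrane genes, was detected over classes B to D in 42 of 42 wild-type, 21 of 30 Flvcr-deleted and 19 of 24 EPO-treated cells. Its medians were 175, 17.7 and 49.5 RPKM, and its differences from wild-type were -3.12 for Flvcr-deleted and -2.36 for EPO-treated cells. Gfi1b, a repressor needed in erythroid and megakaryocyte cells, was detected in 28 of 42, 12 of 30 and 11 of 24 cells, with differences of -3.24 and -1.90. Gata1 had the larger difference in both comparisons.

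The partners in the DNA-bound complex gave smaller values. Lmo2, the bridging protein of the complex, differed by -1.92 for Flvcr-deleted and by -0.71 for EPO-treated cells, the second not meeting the rule. Tal1, its DNA-binding member, differed by -0.88 and 0.59, neither meeting the rule, and was detected in 38 of 42 wild-type, 21 of 30 Flvcr-deleted and 20 of 24 EPO-treated cells. Zfpm1, the FOG1 gene, differed by 0.80 and 0.50, also without meeting it, and was detected in 12 of 42, 12 of 30 and 7 of 24 cells. Ldb1 and Epor were below the level for kept genes; Epor was detected in 16 of 42 wild-type, 6 of 30 Flvcr-deleted and 5 of 24 EPO-treated cells.

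**Figure D4:**
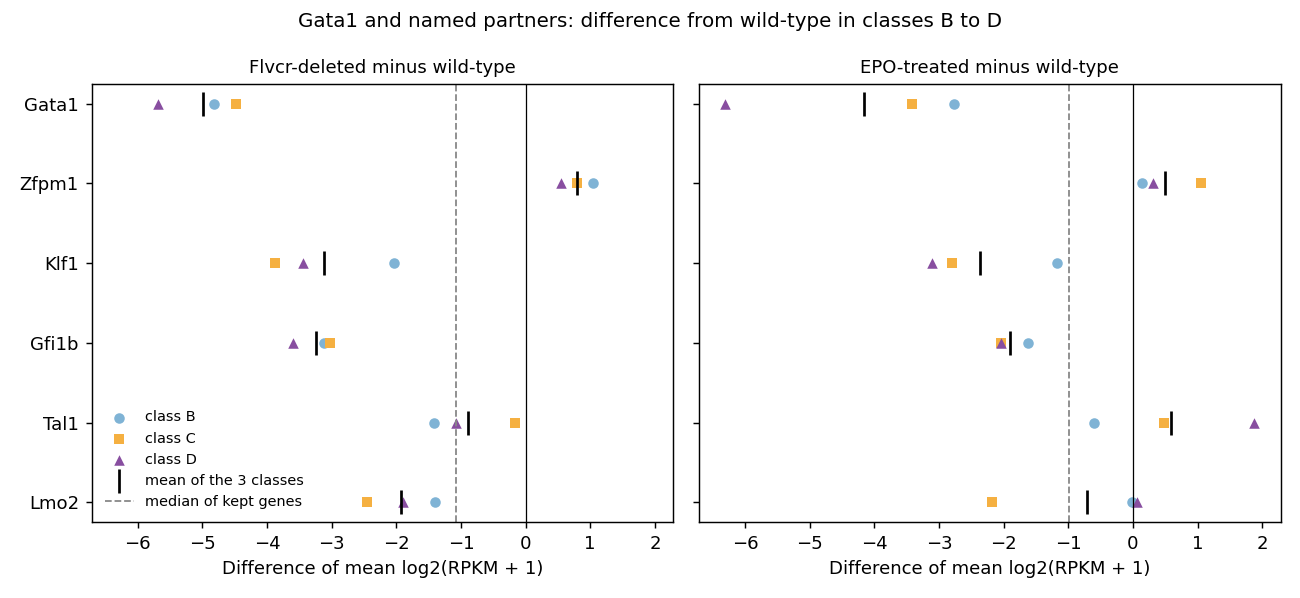
Difference from wild-type of mean log2(RPKM + 1) on the horizontal axis, for Gata1 and 5 of its regulators or partners on the vertical axis, with Flvcr-deleted cells on the left and EPO-treated cells on the right; symbols are classes, black ticks the mean of the 3 classes and the dashed line the median of kept genes. The means of Gata1, at -4.99 and -4.16, lie farthest to the left in both panels, and those of Zfpm1 are at 0.80 and 0.50.

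Cells without detected Gata1 still held erythroid transcripts. In the Flvcr-deleted group, 16 cells of classes B to D lacked Gata1, and 16 of them had the globin gene Hbb-b1, 14 had Alas2, 12 had Klf1 and 10 had Tal1. Of the 14 Flvcr-deleted cells with Gata1, 12 had Alas2, 9 had Klf1 and 11 had Tal1. Epor was detected in only 1 of the 16 cells without Gata1 and in 5 of the 14 with it. Gfi1b was detected in 6 and 6 of them in that order, Zfpm1 in 5 and 7, and Lmo2 in 9 and 9. Hbb-b1 was detected in all 48 Flvcr-deleted cells of classes A to D, so its count could not differ with Gata1. Among the 11 EPO-treated cells without Gata1, 10 had Alas2 and 8 had Klf1. These are counts of detection in single cells, and a transcript that was not detected may still have been present below the reach of the library.

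Lists of genes around GATA1 were counted in the same way over classes B to D, Flvcr-deleted minus wild-type. Of 19 kept partners and erythroid regulators, 11 were lower and 0 higher (3.74% of kept genes were higher); their median was -1.48 against -1.08 over all kept genes; Hdac1, a histone deacetylase, differed by -3.59 and E2f4, a cell cycle repressor, by -2.51. Of 33 kept genes that GATA1 is known to activate, 21 were lower and 0 higher, and the median was -1.79. They included Ppox and Fech, 2 enzymes of heme synthesis, at -5.33 and -3.55, Epb4.2, a protein of the red cell membrane skeleton, at -3.71, and Slc25a38, the mitochondrial glycine carrier, at -3.70. Klf1, Gfi1b, Zfpm1, Tal1 and Nfe2 are on both lists, so the counts are not independent. The shares stand against 48.3% of all kept genes.

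Over classes A to D, where 44.6% of kept genes were lower, the same lists had 9 of 19 lower with 0 higher and 6 of 33 lower with 2 higher, beside 0.669% of kept genes higher. The 2 higher members were the beta-globin genes Hbb-b1 at 2.81 and Hbb-b2 at 2.83, near-identical copies whose reads may be split; over classes B to D they stood at 0.83 and 0.82 and did not meet the rule. All 3 kept progenitor genes are also on the regulator list. Over classes B to D, where 48.3% of kept genes were lower, 2 of the 3 were lower. They were Lmo2 at -1.92 and Lyl1 at -1.60. Of 9 kept genes that act on GATA1 protein stability or activity, 3 were lower and 1 was higher over these 3 classes. Of all kept genes, 48.3% were lower there and 3.74% higher. The median of the 9 genes was -0.996, against -1.08 over all kept genes. The nuclear export receptor Xpo1 differed by -3.03, the chaperone Hspa8 by -2.64 and the deubiquitinase Usp7 by -2.22.

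EPO-treated minus wild-type over classes B to D, where 42.0% of kept genes were lower, 9 of 19 partners and regulators and 18 of 33 activated genes were lower and 0 were higher, beside 0.512% of kept genes higher. Their medians were -1.21 and -1.34 against -0.99 over kept genes. Ermap, a red cell membrane antigen, differed by -3.64, Epb4.2 by -3.62, Hdac1 by -2.96 and Ssbp3, which stabilizes LDB1, by -2.57. Flvcr-deleted minus EPO-treated, where 8.86% of kept genes were lower over classes B to D, 4 of 19 regulators and 7 of 33 activated genes were lower, with Ppox at -3.29, Tspan33 at -2.15, Tal1 at -1.47 and Gfi1b at -1.34. In that comparison Rps19, a ribosomal protein whose loss lowers GATA1 translation, differed by 1.87 in the other direction, with 7.76% of kept genes higher.

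The genes whose pattern was most like that of Gata1 were taken by Pearson's r over the 12 group and class means, which come from the same libraries for every gene. They were Rfwd3, Aldh1a1, Vps35, Ccdc6, Wrn, Acp5, Ifrd2 and Hars, with r from 0.97 for Rfwd3 to 0.96 for Hars. The likeness was not rare, since 10.6% of the 2539 other kept genes had an r of at least 0.8. Among the named regulators r was 0.90 for Gfi1b, 0.81 for Klf1, 0.75 for Lmo2, 0.31 for Tal1 and -0.22 for Zfpm1. Over the 42 wild-type cells of classes B to D, Spearman's rho with Gata1 was -0.02, -0.25, 0.01, -0.02 and 0.04 in that order. For the 8 most alike genes this rho ran from -0.10 for Ifrd2 to 0.41 for Rfwd3. A high r over means thus did not go with an equally high rho over these wild-type cells. Likeness from cell to cell was not measured in the other groups. Only 4 of the 8 genes stayed among the closest 8 by rank correlation, and 2 of the 8 without class A.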

How the data were processed

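Each of the 127 samples was 1 cell, captured on a Fluidigm C1 chip, imaged for Ter119, reverse-transcribed and amplified by SMART-Seq, and sequenced as a Nextera XT library, per the labels' protocols. The values were RPKM, deposited by the authors as 1 table of 34898 rows; 4 columns that match no sample were left out. Alignment used TopHat2 2.0.9 and the mm9 build, per the submitters' processing notes. How reads were counted: not given in the sources used here. Columns of the EPO-treated cells carry at most 2 decimals and may have been processed apart.

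Each symbol was its row of highest mean RPKM. Levels were log2(RPKM + 1), detection was an RPKM of at least 1, and kept genes had a mean log2 level of at least 1 over all cells. Shares have exact (Clopper-Pearson) 95% intervals. Read numbers were estimated from the steps between a column's length-corrected low values, with lengths from GENCODE vM21, another build; a median of 66.5% of values under 6 reads lay within 0.1 of a whole read, against 20% by chance. Of 187 listed symbols 2 were not matched and 4 matched by synonym. Named genes were Gata1, Gata2, check genes, 8 partners, the 4 largest kept members of each list per contrast and the 8 genes most like Gata1; the text gives part of them, and other genes in cells with Gata2 were chosen after their values were seen. Members and lists were chosen with earlier results of these data known. The class-weighted difference was run on resampled wild-type cells with known shifts added. That checks the computation only, not the effect of unlike gene numbers between groups. Python 3.11.15, pandas 2.3.3, numpy 2.4.6, scipy 1.17.1 and matplotlib 3.10.9 were used.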

Additional observations from a re-analysis of the deposited data

Results flagged for a closer look

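In sets of 4 to 10 cells of the same group and class, 4 cells stood farther from the rest than Dixon's 95% critical value; 10 sets were tested, chance alone sets apart about 1 set in 20, and most sets hold many cells at 0, where any single cell with the transcript stands apart. For Gata1 these were the EPO-treated class A cell at 43.7 RPKM, with the other 6 cells at 0, and the EPO-treated class D cell at 4.47 RPKM, with the other 3 at 0. For Gata2 they were the Flvcr-deleted class C cell at 49.0 RPKM, with the other 8 at 0, and the EPO-treated class A cell at 189 RPKM, where the next had 0.06 RPKM. The EPO-treated class A cell is the same one for both genes, and carries the mast cell and basophil markers.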

How the results depend on the processing

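The 3 differences and the 3 class D minus class B values of Gata1 moved by less than the SD over cells under every setting run. That SD describes single cells and not the uncertainty of a mean difference, so staying within it is a weak check. Settings were pseudocounts of 0.1 and 10, equal sums with and without globin genes, and gene number and globin cutoffs. Others left out class A, a chip, the suffix d cells or each cell in turn. Leaving out 1 cell gave -4.23 to -3.89 for Flvcr-deleted minus wild-type, -3.65 to -3.24 for EPO-treated minus wild-type and -0.77 to -0.45 for Flvcr-deleted minus EPO-treated. With a pseudocount of 10 the first 2 were -2.42 and -1.96, and EPO-treated class D minus class B was -2.04. The third difference was -0.07 in cells with at least 1000 detected genes and 0.08 with 1000 to 2000. Class D minus class B ran from -0.25 to 0.35 in wild-type, -1.28 to -0.45 in Flvcr-deleted and -4.12 to -3.05 in EPO-treated cells; for wild-type it was -0.77 with equal sums of RPKM and 0.37 when globin genes were left out of those sums. The Flvcr-deleted share with Gata1, 35.4% over all classes, was 18.75% at an RPKM of at least 10 and 53.8% in cells with at least 1000 detected genes. The wild-type share, 89.6%, was 97.6% without class A or with a globin share of at least 5%. The share with Gata2 was 0% under both of these settings for wild-type and EPO-treated cells; without the 5 cells carrying mast cell and basophil markers, an alternative chosen after seeing the data, it was 2.22% for wild-type and 0% for EPO-treated cells. The number of genes called higher grew when class A was left out, from 17 to 95, from 6 to 13 and from 62 to 197 in the 3 contrasts, and Gata1 went from rank 17 to 3, 11 to 3 and 705 to 454. No paired analysis was possible because the cell numbers only name cells and no result comes from a test. With 1 sample per group, differences between mice or chips cannot be told apart from those between groups.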

Other observations

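Of the other GATA family genes, Gata3, Gata4, Gata5, Gata6 and Trps1 were detected in none of the groups: 0 of 48 Flvcr-deleted, 0 of 48 wild-type and 0 of 31 EPO-treated, with upper limits of the exact intervals of 7.40, 7.40 and 11.2%. Gatad2b, a subunit of the NuRD repressor complex that FOG1 recruits, was detected in 6 cells labelled Flvcr-deleted, 9 wild-type and 6 EPO-treated, and Gatad1 in 5, 4 and 2. An EPO-treated class C cell had Gata1 at 461 RPKM with 846 detected genes, the highest level in that group at one of its lower gene numbers.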
